A study of Mus musculus with 28 samples.

Results

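The genes described here are 10 mouse genes of the circadian clock: Arntl, Clock, Npas2, Per1, Per2, Per3, Cry1, Nr1d1, Dbp and Tef. They were found among 37208 genes and transcripts on an Agilent mouse array, by the RefSeq accession that the scanner files give for each probe. Each has 1 probe on the array, except Dbp, which has 2. Liver RNA of 28 male mice was measured, with 1 array per mouse, in 3 feeding experiments with phenobarbital (PB), a barbiturate that switches on drug-metabolising genes through the nuclear receptor CAR. Mice of the outbred CD-1 stock ate 1500 ppm PB (n = 4) or control diet (n = 4) for 7 days. hCAR/hPXR mice, which per the series title carry humanized forms of the receptors CAR and PXR, ate 1000 ppm PB (n = 7) or control diet (n = 7) for 7 days; how the human genes are driven in them is not given in the sources used here. C3H/HeNCrlCrlj mice, called C3H below, ate 500 ppm PB (n = 3) or control diet (n = 3) for 27 weeks. Both C3H groups had first been given 1 injection of 90 mg/kg diethylnitrosamine, a liver carcinogen, so these controls are not untreated livers. All mice lived under 12 hours of light a day, from hour 8 to hour 20. The clock time at which the livers were taken is not given in the sources used here.

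In the mammalian clock, the proteins of Arntl (also called BMAL1) and Clock, or of Npas2 in place of Clock, pair on E-box sequences and switch on the Per, Cry, Nr1d1, Dbp and Tef genes. The PER and CRY proteins then hold that pair back, and the protein of Nr1d1 (REV-ERB alpha) represses Arntl, so that in mouse liver Arntl RNA peaks near the end of the dark phase while Dbp, Nr1d1 and Per RNAs peak during the light phase or at its end. DBP and TEF are leucine zipper factors that bind D-box sequences and carry the rhythm to output genes, including the gene for CAR. A single liver sample therefore shows 1 moment of the cycle, and its levels depend on when it was taken.

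On the mouse assembly GRCm38.p6, the activator genes lie on chromosome 7 from 113178471 to 113314126 (Arntl), chromosome 5 from 76209868 to 76305603 (Clock) and chromosome 1 from 39193702 to 39363240 (Npas2). Among the repressors, Per1 lies on chromosome 11 from 69095108 to 69109965, Per2 on chromosome 1 from 91415977 to 91459351, Per3 on chromosome 4 from 150997018 to 151044707 and Cry1 on chromosome 10 from 85131700 to 85185054. Nr1d1 lies on chromosome 11 from 98767932 to 98775377. The output genes lie on chromosome 7 from 45705100 to 45710203 (Dbp) and chromosome 15 from 81802673 to 81826863 (Tef). All 10 are protein-coding genes.

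RefSeq promoter windows of GRCm38.p6, each 250 bases before to 50 bases after a transcript start, were at hand for 9 of the 10 genes, as 14 windows. They were searched on both strands for the E-box CACGTG, the E-box variant CACGTT, the D-box forms TTATGTAA and TTACGTAA, and the half-site AGGTCA that REV-ERB and other nuclear receptors recognise. No match overlapped another. The windows below are shown because they are those of genes whose levels the results turn on and each holds a match, given in capitals.
Arntl, chr7:113207261-113207560, plus strand: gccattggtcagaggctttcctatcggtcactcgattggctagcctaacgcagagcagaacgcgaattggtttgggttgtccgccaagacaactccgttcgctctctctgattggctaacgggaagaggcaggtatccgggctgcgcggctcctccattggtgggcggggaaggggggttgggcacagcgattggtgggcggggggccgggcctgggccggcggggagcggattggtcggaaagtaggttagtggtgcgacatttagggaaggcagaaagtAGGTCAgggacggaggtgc
Per1, chr11:69098699-69098998, plus strand: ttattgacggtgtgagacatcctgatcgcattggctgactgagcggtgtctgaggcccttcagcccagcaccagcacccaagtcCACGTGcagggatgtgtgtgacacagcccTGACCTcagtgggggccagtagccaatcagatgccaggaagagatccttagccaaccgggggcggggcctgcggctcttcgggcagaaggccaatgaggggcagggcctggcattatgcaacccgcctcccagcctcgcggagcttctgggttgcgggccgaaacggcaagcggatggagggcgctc
Cry1, chr10:85185005-85185304, minus strand: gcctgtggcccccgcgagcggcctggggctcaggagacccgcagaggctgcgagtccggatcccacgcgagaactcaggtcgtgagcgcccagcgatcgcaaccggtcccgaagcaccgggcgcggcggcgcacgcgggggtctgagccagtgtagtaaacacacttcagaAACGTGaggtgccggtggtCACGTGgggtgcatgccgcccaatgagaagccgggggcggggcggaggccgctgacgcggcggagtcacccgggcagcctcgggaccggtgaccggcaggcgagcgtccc
Per3, chr4:151044616-151044915, minus strand: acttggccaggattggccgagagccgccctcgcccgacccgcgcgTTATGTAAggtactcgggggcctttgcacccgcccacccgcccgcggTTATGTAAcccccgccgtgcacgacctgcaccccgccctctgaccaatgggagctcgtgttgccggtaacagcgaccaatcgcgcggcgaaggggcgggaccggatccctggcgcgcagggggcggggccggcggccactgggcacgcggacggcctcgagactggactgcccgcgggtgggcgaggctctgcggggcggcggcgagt
Tef, chr15:81811164-81811463, plus strand: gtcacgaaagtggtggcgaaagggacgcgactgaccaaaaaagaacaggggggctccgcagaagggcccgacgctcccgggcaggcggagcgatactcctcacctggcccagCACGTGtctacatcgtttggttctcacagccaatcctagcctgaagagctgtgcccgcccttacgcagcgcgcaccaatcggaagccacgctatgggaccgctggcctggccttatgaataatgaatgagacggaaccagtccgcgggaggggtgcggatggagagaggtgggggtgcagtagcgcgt
In the Arntl window an AGGTCA begins at position 32 after the start. In the Per1 window CACGTG begins at position -166 before the start, and AGGTCA lies on the opposite strand at -137. In the Cry1 window CACGTG begins at -60 and the variant CACGTT lies on the opposite strand at -79. The Per3 window holds TTATGTAA at -205 and again at -158. The Tef window holds CACGTG at -138, and the other Tef window, which starts upstream, holds it at -127. The Nr1d1 window held the variant CACGTT on the opposite strand at -28, and 1 of 3 Clock windows held AGGTCA on the opposite strand at -119. The Dbp and Npas2 windows held none of these letters. The E-box CACGTG was found in 4 of the 14 windows and in 7.15% of 32851 windows of all genes, CACGTT in 2 and in 4.68%, TTATGTAA in 1 and in 0.938%, AGGTCA in 3 and in 16.3%, and TTACGTAA in 0 and in 0.119%. These matches describe the sequence, and the arrays do not measure binding.

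A level is given here as the log2 processed signal minus the 75th percentile of its array, so that 0 is that percentile and 1 unit is a 2-fold step. Whether a probe stood well above background was read from the mark in the scanner files, and a gene was tested where this held on every array of 1 or more of the groups compared. Clock, Per1, Dbp and Tef were well above background on all 28 arrays, Arntl on 27, Nr1d1 on 23, Per2 on 19, Npas2 on 16, Cry1 on 11 and Per3 on 6. The CD-1 arrays were dimmer: their 99th percentile of processed signal lay between 4027 and 6495, against 30188 to 47747 in hCAR/hPXR and 22077 to 31767 in C3H mice. CD-1 PB and CD-1 control animals lay on a slide each, so slide and diet cannot be told apart there. In hCAR/hPXR mice, PB animal 1 shared a slide with the 7 controls and PB animals 2 to 7 lay on another. All 6 C3H animals shared 1 slide. Of 7 hepatocyte markers 6 were on the array, and all 6 were well above background on every array. Summed lists of other cells' markers differed without overlap with diet in places. The stellate cell sum was lower in CD-1 PB animals (5.04 to 6.11, on the linear scale relative to the 75th percentile, against 6.84 to 8.24). The lymphocyte sum was lower in hCAR/hPXR PB animals (8.22 to 10.6, against 11.7 to 15.9). Such sums follow their brightest genes. Of the 5 stellate markers tested in CD-1 mice, 0 were called higher and 0 lower. For the 6 hepatocyte markers in CD-1 mice the counts were 0 higher and 2 lower. For the 4 lymphocyte markers tested in hCAR/hPXR mice they were 0 and 2, with slide left out of the fit. The part of these cells in the results for these strains was not tested.

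**Figure D1:**
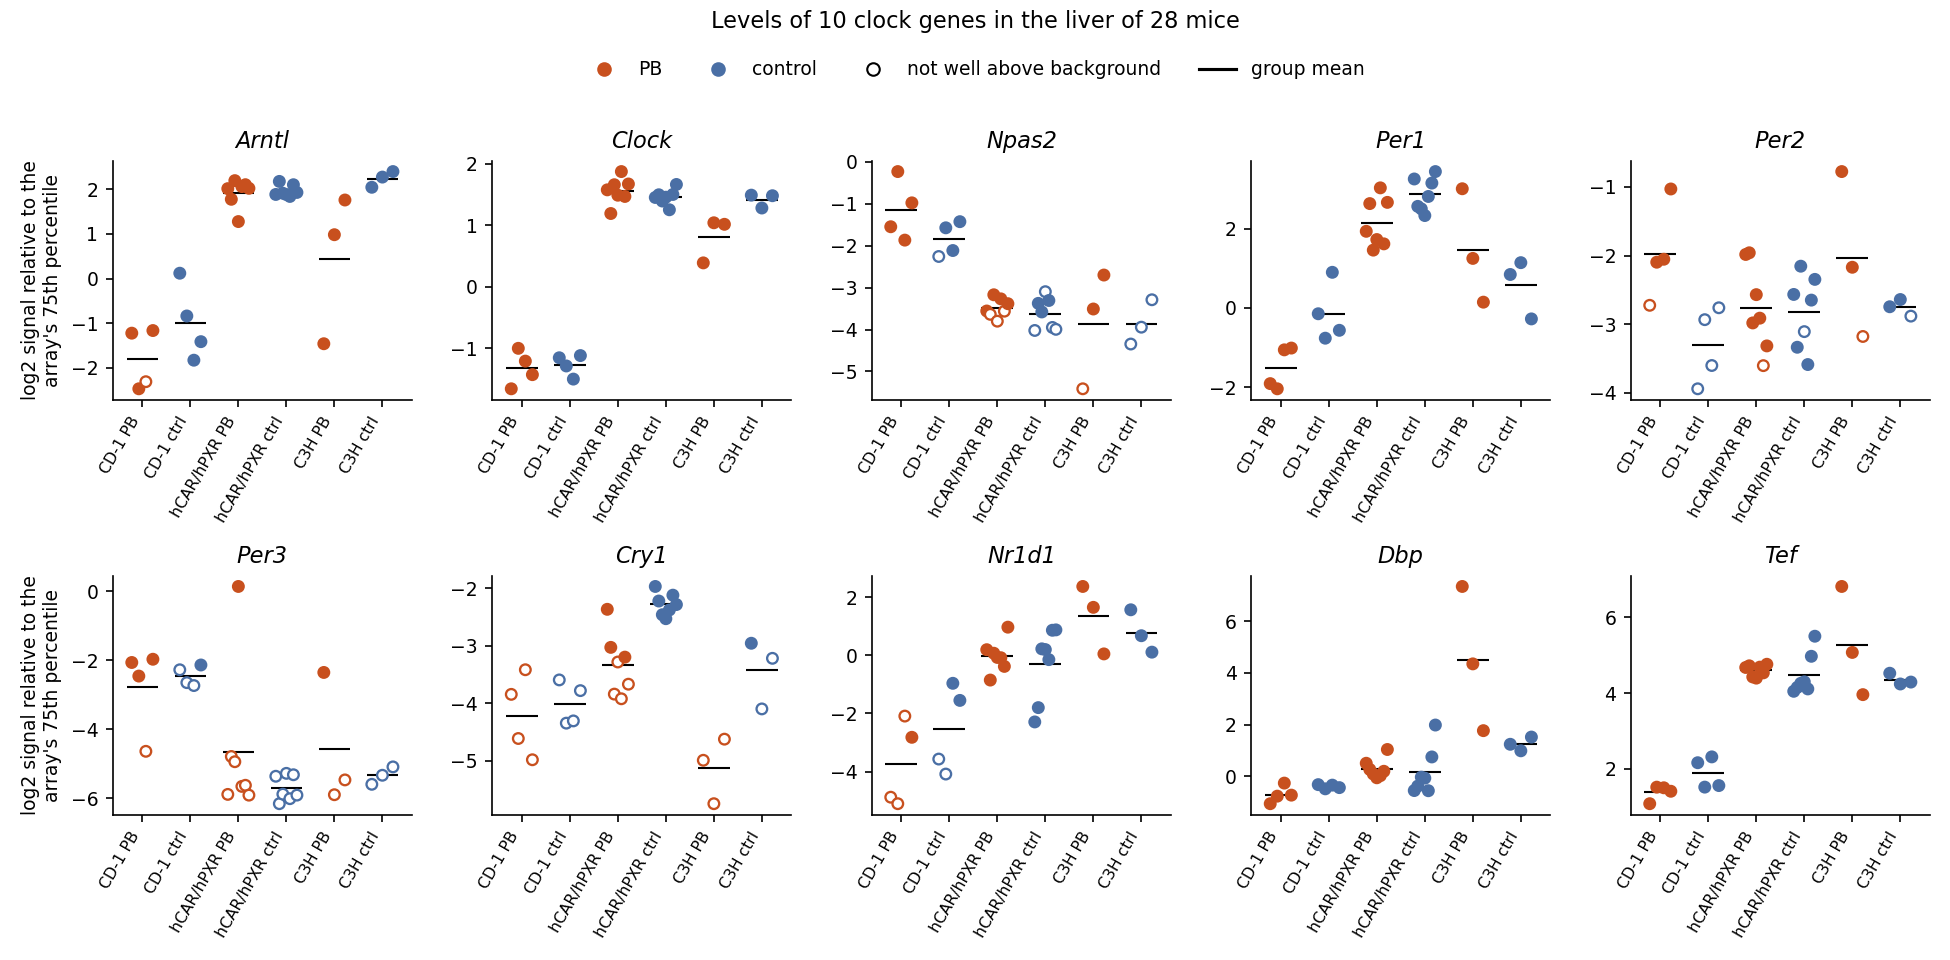
Level of each of the 10 genes (log2, relative to the array's 75th percentile) in each of the 28 mice, with PB in orange and control in blue, open points where the probe was not well above background, and bars at group means. The 3 C3H PB animals spread from -1.46 to 1.76 for Arntl and from 1.77 to 7.35 for Dbp, and 1 hCAR/hPXR PB animal stands alone for Per3 at 0.14.

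No clock gene passed the test for PB in CD-1 or C3H mice. In hCAR/hPXR mice Per1 and Cry1 were called lower over all 14 animals, and neither was called with the slide as a block (adjusted p = 0.441 and 0.917). The blocked differences rest on PB animal 1, the only one on the slide of the controls. They were -0.93 for Per1 and -0.09 for Cry1, against -0.71 and -1.05 without the block. In CD-1 mice 0 of 6 tested genes were called higher and 0 lower, where 1.85% of 23789 genes were called higher and 6.14% lower. In hCAR/hPXR mice 0 of 7 tested genes were called higher and 2 lower, where 35% of 20037 genes were called higher and 23.2% lower. In C3H mice 0 of 6 tested genes were called higher and 0 lower, where 7.38% of 18273 genes were called higher and 7.3% lower. The median difference of the tested clock genes was -0.41 in CD-1, 0.10 in hCAR/hPXR and 0.73 in C3H mice, beside -0.04, 0.13 and -0.05 over all tested genes. In whole liver, fewer cells of a type and less RNA per cell cannot be told apart.

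**Figure D2:**
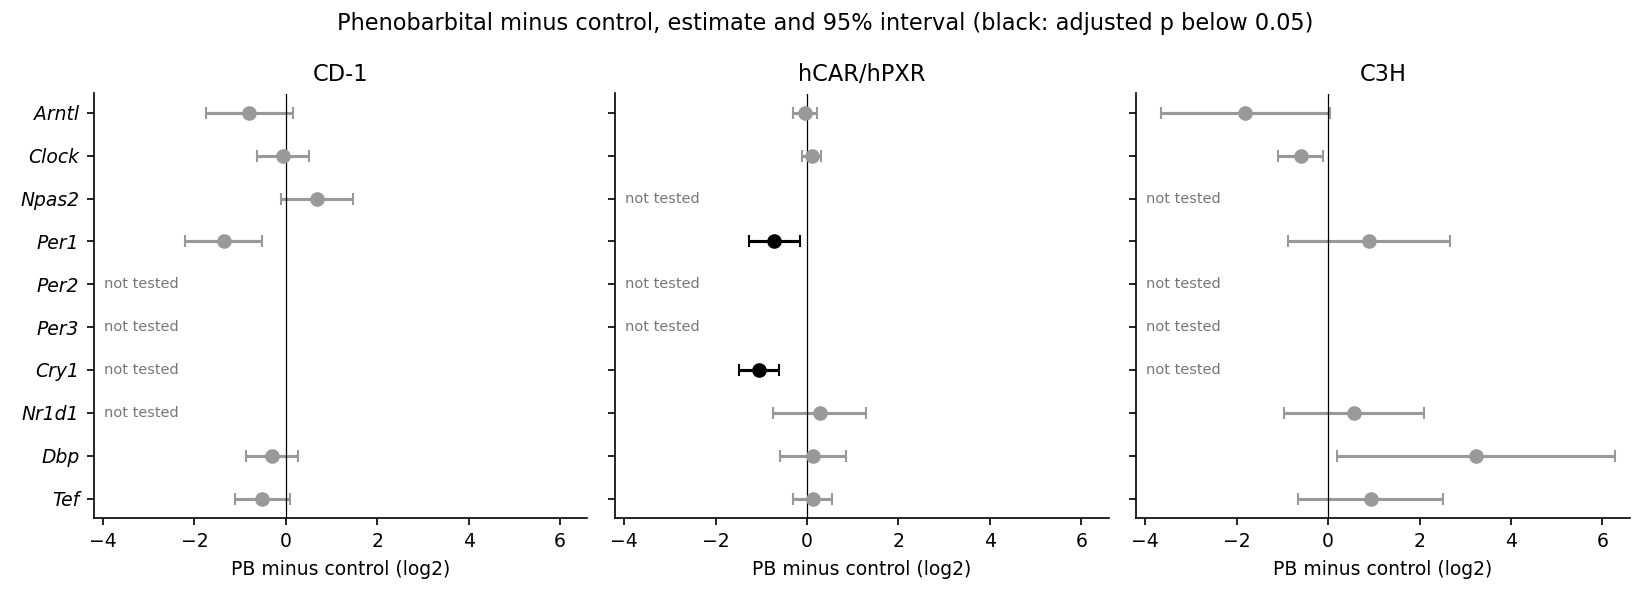
PB minus control (log2) for each tested gene in each strain, with 95% confidence intervals from limma and called genes in black. Per1 at -0.71 and Cry1 at -1.05 in hCAR/hPXR mice are the called genes, and neither was called with the slide as a block, and the intervals in C3H mice are the widest of the 3 strains for Arntl, Per1, Dbp and Tef.

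Of the activators, Arntl and Clock kept near their control levels in hCAR/hPXR mice. In C3H mice neither passed the test for PB, though both lay below every control in all 3 PB animals. The share of all genes whose groups do not overlap is not given, so separation of groups, here and below, does not set a gene apart. Arntl was at -1.46, 0.98 and 1.76 in the C3H PB animals and at 2.04, 2.27 and 2.39 in the C3H controls. The groups did not overlap, and PB animal 1 lay 3.69 log2 units under the control mean. The difference was -1.81 ± 0.77 (SE, limma adjusted p = 0.147), and -0.87 with an adjusted p of 0.0537 without PB animal 1. Clock, the partner of the ARNTL protein, was at 0.39, 1.04 and 1.02 in the C3H PB animals and at 1.49, 1.28 and 1.48 in the controls, again without overlap. Its difference was -0.60 ± 0.20 (SE, limma adjusted p = 0.0918). When the spread was estimated from all 28 arrays in 1 fit, both were called, with an adjusted p of 0.0146 for Arntl and 0.0288 for Clock. That fit takes 1 spread per gene for all groups. The SD of Arntl was 1.68 in C3H PB animals and 0.13 to 0.84 in the other groups. Arntl in hCAR/hPXR mice had a lowest, median and highest level of 1.28, 2.02 and 2.19 in PB animals and of 1.84, 1.91 and 2.17 in controls. Its difference of -0.04 had a 95% interval of -0.31 to 0.23. Clock had 1.19, 1.58 and 1.88 in PB animals and 1.26, 1.46 and 1.67 in controls, with a difference of 0.10 and an interval of -0.10 to 0.31.

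In CD-1 mice Arntl was at -1.22, -2.47, -2.31 and -1.16 in PB animals and at 0.12, -0.84, -1.83 and -1.41 in controls. The groups overlapped, and the difference of -0.80 ± 0.44 (SE) had an adjusted p of 0.257. Clock was the steadiest of the 10 genes there, at -1.66 to -1.0 in PB animals and -1.5 to -1.12 in controls, with a difference of -0.06 ± 0.26 (SE, adjusted p = 0.903). Npas2, a relative of Clock that can replace it as partner, was at -1.55, -0.23, -1.87 and -0.98 in CD-1 PB animals and at -2.26, -1.57, -2.11 and -1.43 in controls. These groups overlapped, with a difference of 0.69 ± 0.37 (SE, adjusted p = 0.243). In the other strains no group had Npas2 well above background on every array, so it was not tested there. In hCAR/hPXR mice it was at -3.80 to -3.17 in PB animals and at -4.02 to -3.1 in controls. In C3H mice it was at -5.41, -3.51 and -2.70 in PB animals and at -4.35, -3.94 and -3.29 in controls. It was well above background in PB animals 2 and 3 and in no C3H control.

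Per1, a light- and hormone-responsive repressor of the clock, was called lower in hCAR/hPXR mice over all 14 animals. Its lowest, median and highest levels were 1.46, 1.93 and 3.02 in PB animals and 2.33, 2.81 and 3.44 in controls. The groups overlapped: PB animals 2, 5 and 7 lay within the control range and the other 4 lay below it. The difference was -0.71 ± 0.26 (SE, limma adjusted p = 0.0287), a 1.64-fold lower level. The call was lost without control animal 1, 6 or 7 or PB animal 3, 4 or 6 (adjusted p between 0.0501 and 0.0614), and with all 28 arrays in 1 fit (adjusted p = 0.107). With the slide as a block the difference was -0.93 ± 0.53 (SE, adjusted p = 0.441), a value that rests on PB animal 1.

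Cry1, a repressor that binds the ARNTL and CLOCK pair, was called lower in hCAR/hPXR mice over all 14 animals, and on the slide that held both groups the 1 PB animal lay within the control range. It was at -2.37 in PB animal 1, against -2.53 to -1.97 in the 7 controls on the same slide, all well above background. PB animals 2 to 7, on the other slide, were at -3.03, -3.84, -3.28, -3.92, -3.20 and -3.67, and the probe was well above background in animals 2 and 6 of these. The difference over all animals was -1.05 ± 0.20 (SE, limma adjusted p = 0.000583), and -0.20 under normexp (adjusted p = 0.00918). The probe was well above background in 3 of the 7 PB animals, so the size of this difference rests partly on background values and no fold is given. With the slide as a block it was -0.09 ± 0.29 (SE, adjusted p = 0.917), a value that rests on PB animal 1. With that block, 440 of 20037 genes were called, against 11643 without it. In CD-1 and C3H mice Cry1 was well above background on 1 array, that of C3H control animal 1, and was not tested. It was at -4.99, -5.75 and -4.62 in C3H PB animals and at -2.96, -4.10 and -3.22 in C3H controls, and these dim values have no fold.

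**Figure D3:**
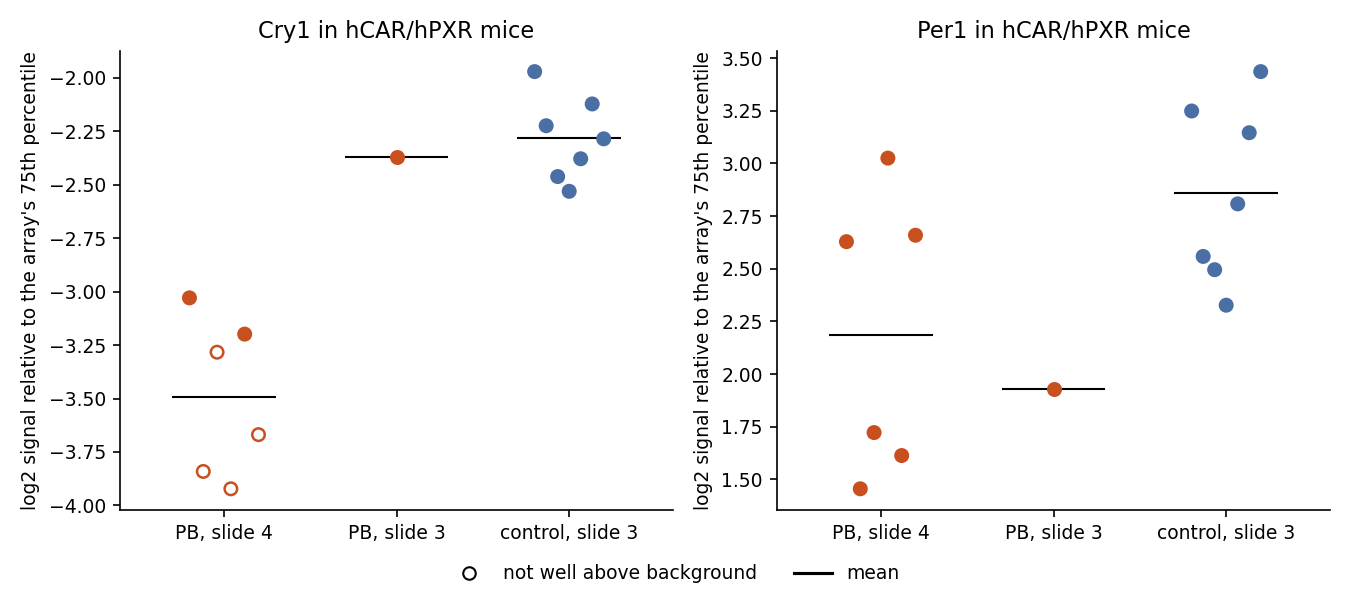
Levels of Cry1 and Per1 (log2, relative to the array's 75th percentile) in hCAR/hPXR mice by slide, with PB in orange, control in blue, open points where the probe was not well above background, and bars at means. For Cry1 the PB animal on the slide of the controls lies at -2.37 among them and the 6 on the other slide lie between -3.92 and -3.03; for Per1 the same animal lies at 1.93, below all 7 controls.

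In CD-1 mice Per1 was at -1.91, -2.04, -1.06 and -1.01 in PB animals and at -0.15, -0.76, 0.90 and -0.57 in controls. Every PB animal lay below every control. The difference of -1.36 ± 0.39 (SE) had an adjusted p of 0.0508 (-2.41 and 0.0735 under quantile normalization), and of 0.0361 with all 28 arrays in 1 fit. It was called without control animal 2 (-1.57, adjusted p = 0.0385) or control animal 4 (-1.5, adjusted p = 0.0493). In C3H mice Per1 was at 3.00, 1.25 and 0.14 in PB animals and at 0.84, 1.14 and -0.28 in controls, with a difference of 0.90 ± 0.74 (SE, adjusted p = 0.423).

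Per2 and Per3, the other period genes, were too dim for a test in any strain. Per2 was well above background in 3 of 4 CD-1 PB animals and in 0 of 4 CD-1 controls, at -2.72, -2.10, -2.05 and -1.03 in PB animals and at -3.94, -2.93, -3.60 and -2.76 in controls. With each dim control raised to the lowest signal well above background on its array, its level was at least 1.66-fold higher in PB animals, a bound with no test. PB animal 1, the lowest of the 4, was the only one not well above background. Leaving it out let Per2 through the filter and raised the PB mean as well. Per2 was then the 1 clock gene called higher in CD-1 mice, a call that adds nothing to the bound. In C3H mice Per2 was at -0.78, -2.17 and -3.18 in PB animals and at -2.75, -2.64 and -2.88 in controls. It ranged in hCAR/hPXR mice from -3.60 to -1.96 in PB animals and from -3.59 to -2.16 in controls. Per3 was at -2.36, -5.90 and -5.47 in the C3H PB animals and between -5.60 and -5.10 in the controls, and only PB animal 1 was well above background. Of the hCAR/hPXR PB animals, 6 of 7 lay between -5.92 and -4.79 and PB animal 4 lay at 0.14, against -6.16 to -5.28 in the controls. In CD-1 mice Per3 was at -2.07, -2.46, -4.64 and -1.97 in PB animals and at -2.28, -2.65, -2.74 and -2.14 in controls.

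Nr1d1, the repressor of Arntl, varied widely among animals of every diet and was not called. Its lowest, median and highest levels in hCAR/hPXR mice were -0.85, -0.07 and 0.97 in PB animals and -2.29, 0.20 and 0.87 in controls. The low end of the controls was formed by animals 1 and 2, at -2.29 and -1.80, and the other 5 lay between -0.15 and 0.87. The difference was 0.28 ± 0.47 (SE, adjusted p = 0.634). In C3H mice it was at 2.37, 1.65 and 0.05 in PB animals and at 1.56, 0.67 and 0.11 in controls, with a difference of 0.57 ± 0.64 (SE, adjusted p = 0.556). In CD-1 mice it was at -4.88, -5.10, -2.09 and -2.82 in PB animals and at -3.57, -4.08, -0.96 and -1.55 in controls, and was not tested.

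Dbp, the D-box factor with the steepest rhythm of the output genes in mouse liver, gave the largest differences between single C3H animals among the tested clock genes. It was at 7.35, 4.35 and 1.77 in the C3H PB animals and at 1.24, 0.99 and 1.52 in the C3H controls. All 3 PB animals lay above all 3 controls, and PB animals 1 and 3 differed 47.8-fold from each other. The difference was 3.24 ± 1.27 (SE, limma adjusted p = 0.124), with a 95% interval of 0.19 to 6.29. The other Dbp probe gave 7.51, 4.50 and 1.80 in PB animals and 1.31, 1.11 and 1.67 in controls, also a difference of 3.24. The call depended on the handling of the spread: the adjusted p was 0.0416 without PB animal 3, where the difference was 4.60, and 0.00296 with all 28 arrays in 1 fit. Without PB animal 1 the difference was 1.81 (adjusted p = 0.111). Dbp in hCAR/hPXR mice had a lowest, median and highest level of -0.06, 0.20 and 1.04 in PB animals and of -0.56, -0.07 and 1.98 in controls, with a difference of 0.13 ± 0.34 (SE, adjusted p = 0.759). In CD-1 mice it was at -1.06, -0.77, -0.26 and -0.73 in PB animals and at -0.32, -0.48, -0.34 and -0.44 in controls, with a difference of -0.31 ± 0.26 (SE, adjusted p = 0.460).

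Tef, the close relative of Dbp, was at 6.82, 5.08 and 3.96 in the C3H PB animals and at 4.53, 4.24 and 4.29 in the controls. PB animals 1 and 2 lay above the controls and animal 3 below them, and the difference of 0.93 ± 0.66 (SE) had an adjusted p of 0.354. In CD-1 mice Tef was at 1.08, 1.52, 1.5 and 1.41 in PB animals and at 2.16, 1.52, 2.32 and 1.56 in controls, with a difference of -0.51 ± 0.28 (SE, adjusted p = 0.257). Every CD-1 PB animal lay below every control there, with the closest pair both at 1.52. Its lowest, median and highest levels in hCAR/hPXR mice were 4.40, 4.68 and 4.76 in PB animals and 4.05, 4.26 and 5.50 in controls. Control animals 6 and 7 held the highest Tef levels, 4.97 and 5.50, and also the highest Dbp levels of the controls, 0.75 and 1.98. The difference was 0.12 ± 0.20 (SE, adjusted p = 0.613), and its sign turned under quantile normalization (-0.07) and normexp (-0.12).

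The C3H PB animals differed among themselves across the whole set of clock genes. PB animal 1 was the lowest of the 6 C3H animals for Arntl and Clock and the highest for Per1, Nr1d1, Dbp and Tef, which are all 6 genes tested in C3H. It also had the highest Per2 and Per3, which were not tested. The rank of Npas2 is not used, since its probe was not well above background in PB animal 1 or in any C3H control. Over all 18268 genes tested in C3H and measured on all 6 arrays, PB animal 1 was at an extreme for 26.1% and PB animal 3 for 51.5%, so animal 1 did not stand apart over all genes. The range over the 3 PB animals was wider than that over the 3 controls for all 6 tested clock genes, beside 65.4% of all tested genes. The median range of the 6 tested genes was 2.86 log2 units in PB animals and 0.44 in controls, beside 0.43 and 0.29 over all tested genes. A range over 2 log2 units was found in PB animals for 5 of the 6 tested genes, beside 3.36% of all tested genes. PB animal 2 lay between animals 1 and 3 for Arntl, Per1, Nr1d1, Dbp and Tef, at distances from the control mean of -1.25 for Arntl, 3.1 for Dbp and 0.72 for Tef. PB animal 3 lay closest to the controls of the 3 for Arntl (-0.48), Dbp (0.52) and Tef (-0.39). The summed level of the 6 hepatocyte markers was lower in C3H PB animals (6061 to 6672, relative to the 75th percentile) than in C3H controls (7714 to 9342), and so were the summed lymphocyte markers (9.15 to 10.2 in PB animals, 12.1 to 14.1 in controls) and endothelial markers (80.6 to 115.0 in PB animals, 132.7 to 146.7 in controls). A sum is ruled by its brightest genes. Of the 6 endothelial markers tested, 1 was called higher and 1 lower. For the 6 hepatocyte markers the counts were 0 higher and 3 lower, and for the 2 lymphocyte markers tested 0 and 0. Exocrine pancreas markers summed higher in PB animals (5.79 to 15.6) than in controls (3.88 to 4.20). The 2 tested, Cela1 and Ctrb1, went opposite ways: 1 was called higher and 1 lower. Prss2, Cpa1 and Pnlip were not well above background on any C3H array. The part of these cells in the clock gene differences was not tested.

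**Figure D4:**
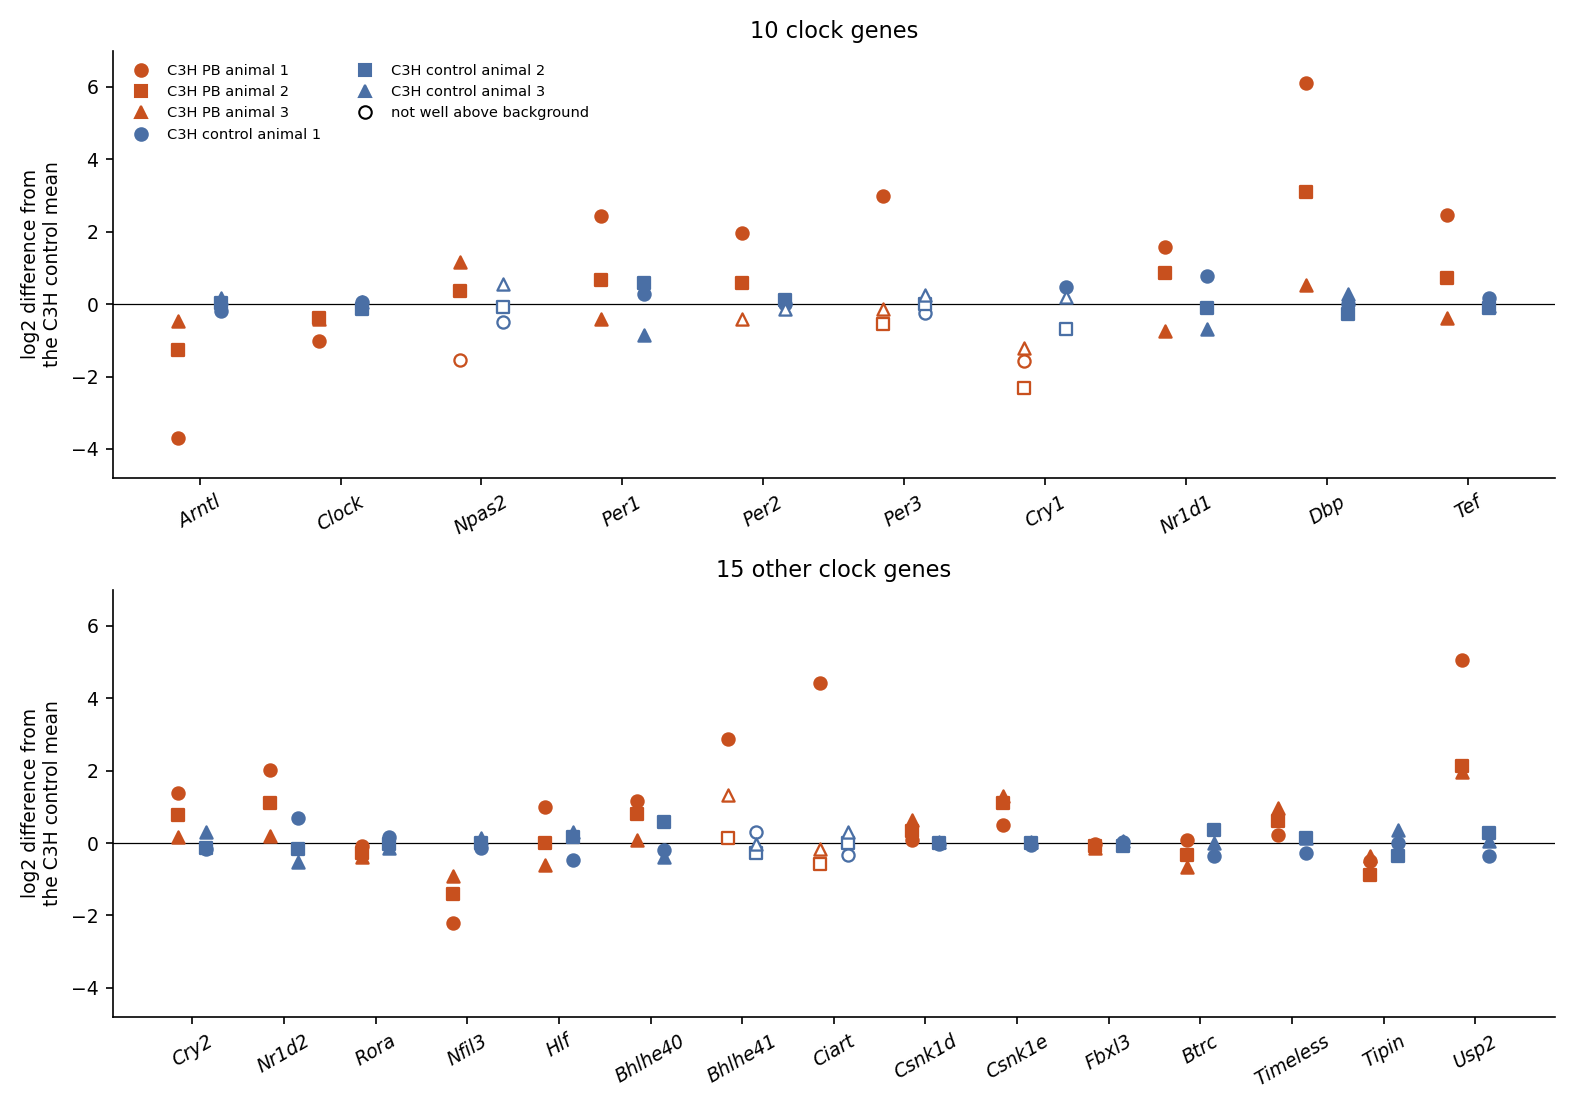
Difference of each C3H animal from the mean of the 3 C3H controls (log2) for the 10 genes and for 15 other clock genes, with PB in orange, control in blue, a marker shape per animal and open points where the probe was not well above background. PB animal 1 lies farthest from the controls for Arntl (-3.69) and Dbp (6.10), PB animal 2 between and PB animal 3 nearest.

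Whether PB acted differently on these genes from strain to strain was tested with interaction terms, fitted by limma over the 28 arrays together. This fit takes 1 spread per gene for all groups. The SD of Dbp was 2.79 in C3H PB animals and 0.08 to 0.92 in the other groups. The SE of a difference with C3H can thus be too small: that of Dbp below, 1.01, lies under the 1.27 of its C3H effect alone. For C3H minus CD-1, 2 of 7 tested clock genes were called higher and 0 lower, where 9.63% of 26535 genes were called higher and 5.46% lower. Dbp differed by 3.55 ± 1.01 (SE, adjusted p = 0.0193): its PB effect was 3.24 in C3H and -0.31 in CD-1 mice. Per1 differed by 2.26 ± 0.73 (SE, adjusted p = 0.0367), with a PB effect of 0.90 in C3H and -1.36 in CD-1 mice. Without C3H PB animal 1 the Dbp difference was 2.12 (adjusted p = 0.0502) and the Per1 difference 1.49 (adjusted p = 0.121). The Per1 call was also lost without C3H PB animal 2, C3H control animal 3, CD-1 PB animal 1 or 2, or CD-1 control animal 1 or 3 (adjusted p between 0.0545 and 0.116), and with no filter on dim probes (0.0502). For C3H minus hCAR/hPXR, 1 of 7 was called higher and 1 lower, where 4.16% of 20565 genes were called higher and 5.39% lower. Dbp differed by 3.11 ± 0.90 (SE, adjusted p = 0.0287) and Clock by -0.70 ± 0.23 (SE, adjusted p = 0.0496). Both calls were lost under quantile normalization (2.76 with adjusted p = 0.0788 for Dbp, -0.49 with adjusted p = 0.419 for Clock), with no filter, and without C3H PB animal 1 (1.68 and -0.49) or any 1 of the C3H controls. The Dbp call was lost as well without C3H PB animal 2 (3.18, adjusted p = 0.0589), and by the other Dbp probe (2.98, adjusted p = 0.0653). The Clock call was lost without C3H PB animal 3 (-0.81, adjusted p = 0.0545), hCAR/hPXR control animals 1 to 6 or PB animals 3 to 7, each left out alone. For hCAR/hPXR minus CD-1, 0 of 8 tested clock genes were called higher and 0 lower, where 19.5% of 27079 genes were called higher and 9.11% lower. Cry1 (-0.84) and Nr1d1 (1.46) gave the lowest and highest values, but Cry1 was well above background on 0 and Nr1d1 on 3 of the 8 CD-1 arrays, so these sizes rest partly on background values. For the 4 genes with no dim array in either strain, the differences were 0.65 for Per1 (95% interval -0.58 to 1.87), 0.64 for Tef (-0.33 to 1.60), 0.44 for Dbp (-1.26 to 2.14) and 0.16 for Clock (-0.27 to 0.60).

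The control groups of the 3 experiments were set side by side to ask whether the clock stood at different points in them. Strain, age, time of sampling, slide and array brightness all change with the experiment and cannot be told apart. Most genes were called in these comparisons, so its call does not set a clock gene apart from other genes. For hCAR/hPXR minus CD-1 controls, 6 of 7 tested clock genes were called higher and 0 lower, where 51.2% of 22660 genes were called higher and 37.6% lower. For C3H minus CD-1 controls, 5 of 6 were called higher and 0 lower, where 51.1% of 21883 genes were called higher and 38.1% lower. The median difference was 2.59 and 2.57 for the clock genes, beside 0.57 and 0.73 over all tested genes. Under normexp the medians over all genes were 0.19 in both comparisons, and every call but that of Tef in C3H kept its side of the threshold, at smaller differences. Arntl averaged 2.24 ± 0.18 in C3H (SD, n = 3), 1.96 ± 0.13 in hCAR/hPXR (SD, n = 7) and -0.99 ± 0.84 in CD-1 controls (SD, n = 4). Clock averaged 1.42 ± 0.12 in C3H, 1.46 ± 0.12 in hCAR/hPXR and -1.26 ± 0.17 in CD-1 controls. Both stood lowest in CD-1 controls, with no overlap with either other strain. Per1 averaged 0.57 ± 0.75 in C3H, 2.86 ± 0.42 in hCAR/hPXR and -0.15 ± 0.74 in CD-1 controls, and the C3H and CD-1 groups overlapped (difference 0.71 ± 0.41, SE, adjusted p = 0.112). Dbp averaged 1.25 ± 0.27 in C3H, 0.16 ± 0.92 in hCAR/hPXR and -0.40 ± 0.08 in CD-1 controls, and hCAR/hPXR and CD-1 overlapped (difference 0.56 ± 0.39, SE, adjusted p = 0.184; 0.98 and called under quantile normalization, adjusted p = 0.0220). Nr1d1 was higher in hCAR/hPXR (difference 2.24 ± 0.69, SE, adjusted p = 0.00697) and in C3H (3.32 ± 0.85, SE, adjusted p = 0.00181) than in CD-1 controls, 2 of 4 of which had it well above background, so these sizes rest partly on background values. Tef was higher in hCAR/hPXR by 2.59 ± 0.27 (SE, adjusted p = 2.4e-07) and in C3H by 2.46 ± 0.33 (SE, adjusted p = 3.9e-06), and under normexp the C3H difference was 0.53 (adjusted p = 0.0818). Cry1 was at least 1.37-fold higher in hCAR/hPXR than in CD-1 controls, where it was not well above background on any array. Its limma adjusted p of 1.74e-06 belongs to the measured difference of 1.72, which rests on background values in CD-1 controls, and not to this bound. Npas2 was not tested: it averaged -1.84 in CD-1 controls, 3 of 4 of which measured it, and -3.86 in C3H controls. In the deposited values the median entry of an array lay at -1.73 to -1.30 in CD-1 controls and at -3.65 to -3.45 in C3H controls. The Npas2 mean lay below that median in both strains, so Npas2 is given no fold and no direction. Per3 was well above background in 1 of 4 CD-1 controls and in none of the hCAR/hPXR or C3H controls, and is given no direction.

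C3H and hCAR/hPXR controls, whose arrays were closer in brightness, differed in 3 of 7 tested clock genes. Of these 1 was called higher in C3H and 2 lower, where 31.3% of 19731 genes were called higher and 19.6% lower. Per1 was lower in C3H controls by 2.29 log2 units (difference -2.29 ± 0.36, SE, adjusted p = 0.000116), at 0.84, 1.14 and -0.28 against 2.33 to 3.44, with no overlap. Cry1 differed by -1.14 ± 0.23 (SE, adjusted p = 0.000852), but was well above background in 1 of the 3 C3H controls, so the size rests partly on background. It differed by -0.65 under quantile normalization and by -0.18 under normexp (adjusted p = 0.0638). Dbp differed by 1.09 ± 0.42 (SE, adjusted p = 0.0434) with overlapping groups, and this call was lost under quantile normalization, normexp and no filter, and without any 1 of the C3H controls or of hCAR/hPXR control animals 1 to 5 (adjusted p between 0.0652 and 0.149). Arntl differed by 0.28 with a 95% interval of -0.34 to 0.89, Clock by -0.04 (-0.32 to 0.23) and Tef by -0.12 (-0.75 to 0.50). Of these 7 genes Per1 had the largest difference between the control groups.

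A list of 15 other clock genes, all on the array, held 1 gene called for PB in CD-1 mice, 4 in hCAR/hPXR mice and 2 in C3H mice. In CD-1 mice 0 of 11 tested were called higher and 1 lower: Hlf, the third D-box factor, at -1.15 (adjusted p = 0.0470), a call lost when any 1 of CD-1 control animals 1 and 3 or of the 4 PB animals was left out. In hCAR/hPXR mice 3 of 13 were called higher and 1 lower. Tipin (0.48, adjusted p = 0.000139), Csnk1e, the kinase that marks PER proteins for breakdown (0.44, adjusted p = 0.00191) and Timeless (1.70, adjusted p = 0.0363) were higher, and Btrc (-0.50, adjusted p = 0.0358) was lower. With the slide as a block none of these 4 was called, with differences of 0.42, 0.26, 1.32 and -0.33. In C3H mice 1 of 13 was called higher, Csnk1e (0.98, adjusted p = 0.0346), and 1 lower, Nfil3 (-1.51, adjusted p = 0.0317), a repressor that competes with DBP for D-boxes. Nfil3 was at 3.35, 4.16 and 4.65 in C3H PB animals and at 5.43, 5.57 and 5.69 in C3H controls, and was lower in every PB animal. Both calls were lost without any 1 of the C3H controls or without PB animal 2 (adjusted p between 0.0892 and 0.112), and that of Csnk1e also without PB animal 3 (0.0794). The percentages of all genes given above for each strain apply to these counts.

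Several genes of that list split the C3H PB animals as Arntl and Dbp did. Nr1d2, the sister gene of Nr1d1, was at 2.16, 1.24 and 0.34 in PB animals and at 0.84, -0.03 and -0.39 in controls (difference 1.11 ± 0.51, SE, adjusted p = 0.171). Hlf was at 3.41, 2.40 and 1.79 in PB animals and at 1.94, 2.56 and 2.71 in controls (difference 0.13, adjusted p = 0.858). Ciart, a repressor of the ARNTL and CLOCK pair, was well above background only in PB animal 1, at -0.76, with the other 5 C3H animals between -5.77 and -4.89. Ciart in hCAR/hPXR mice was well above background only in control animal 7, at -1.63, the animal that also had the highest Dbp and Tef of its strain. Usp2, a rhythmic deubiquitinase named after its values were seen, was at 3.34, 0.41 and 0.24 in C3H PB animals and at -2.08, -1.44 and -1.66 in controls. Its difference was 3.06 ± 0.81 (SE, adjusted p = 0.0512), and 2.05 without PB animal 1 (adjusted p = 0.00275). Over the 15 genes, PB animal 1 was at an extreme of the 6 animals for 8, beside 26.1% of all genes tested in C3H. The PB range exceeded the control range for 12, beside 65.4% of those genes. Only 13 of the 15 were tested in C3H mice, and Ciart was not among them.

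Of 16 clock-controlled liver genes 15 were on the array, and those that moved in all 3 strains were Cyp2b10 and Por, both CAR targets as well as rhythmic genes. In CD-1 mice 3 of 13 tested were called higher and 1 lower, in hCAR/hPXR mice 7 of 15 higher and 4 lower, and in C3H mice 3 of 15 higher and 1 lower. Over all tested genes 1.85% were called higher and 6.14% lower in CD-1, 35% and 23.2% in hCAR/hPXR, and 7.38% and 7.3% in C3H mice. With the slide as a block, only Cyp2b10 (adjusted p = 0.000102) and Por (0.0176) of this list stayed called in hCAR/hPXR mice. Cyp2b10, a cytochrome P450 and the classic mark of CAR activation, was higher by 6.66 in CD-1 (adjusted p = 1.62e-05), 4.49 in hCAR/hPXR (2.46e-09) and 5.74 in C3H mice (0.000335). Por, the electron donor of the P450 enzymes, was higher by 2.05 in CD-1 (adjusted p = 0.00845), 1.09 in hCAR/hPXR (3.8e-06) and 2.23 in C3H mice (0.00102). Alas1, the first enzyme of haem synthesis, was higher in CD-1 mice by 1.65 (adjusted p = 0.0248, lost without PB animal 2, 3 or 4), and differed by 0.28 in hCAR/hPXR (adjusted p = 0.180) and by 0.90 in C3H mice (adjusted p = 0.350). Ppara, the fatty acid receptor, was lower in CD-1 mice (-1.75, adjusted p = 0.0101) and in hCAR/hPXR mice (-0.31, adjusted p = 0.0273, and 0.226 with the slide as a block). The hCAR/hPXR call was also lost without control animal 5, 6 or 7 or PB animal 1 (adjusted p between 0.0504 and 0.0602). Nr1i3, the mouse gene for CAR, differed by -0.99 in hCAR/hPXR mice (adjusted p = 2.1e-05), by -0.65 there with the slide as a block (adjusted p = 0.164), by -0.44 in CD-1 (adjusted p = 0.289) and by -0.24 in C3H mice (adjusted p = 0.413). What the Nr1i3 probe reads in hCAR/hPXR mice, whose CAR is humanized, is not given in the sources used here. Wee1, a mitotic kinase with E-boxes, was higher by 3.77 in C3H mice (adjusted p = 0.00169) and by 0.97 in hCAR/hPXR mice (adjusted p = 0.000249, and 0.0914 with the slide as a block). Under normexp these differences were 1.54 and 0.34. In C3H mice Wee1 was at 1.17, 1.17 and 1.21 in PB animals and at -3.24, -2.42 and -2.10 in controls, so the 3 PB animals that differ 47.8-fold in Dbp were alike in Wee1. Cyp2b10 was likewise close in these animals, at 9.85, 10.13 and 10.45. Elovl3, a fatty acid elongase, was lower in C3H mice (-2.64, adjusted p = 0.00256) and in hCAR/hPXR mice (-1.62, adjusted p = 0.0304, and 0.761 with the slide as a block). That hCAR/hPXR call was lost as well without control animal 2, 3, 4, 6 or 7 or PB animal 2, 5 or 7 (adjusted p between 0.0525 and 0.0627). Pck1, the gluconeogenic enzyme named after its values were seen, was at 7.81, 5.01 and 1.52 in C3H PB animals and at 8.23, 7.92 and 7.75 in controls, with a 78.0-fold gap between PB animals 1 and 3 and a difference of -3.18 ± 1.43 (SE, adjusted p = 0.164). PB animal 1, the farthest from the controls in Dbp, was the nearest to them in Pck1.

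Whether the clock genes move together was read from the deviations of each animal from its group mean over the 28 arrays, as a description. Dbp and Tef had a Pearson r of 0.94, and of 0.85 over the 25 arrays without the C3H PB animals, an alternative chosen after seeing the data. Dbp and Nr1d1 had 0.52 with and without those animals. Arntl and Dbp had -0.62 over 28 arrays and -0.01 over 25, and Arntl and Tef -0.60 and -0.05, so the negative values of Arntl with the output genes rest on the 3 C3H PB animals. Among 7943 named genes well above background on every array, Tef was the gene most like Dbp. Next came Sfxn1, a mitochondrial serine carrier (0.89), Gldc, of the glycine cleavage system (0.89), Ak4 (0.87) and Arg1, the last enzyme of the urea cycle (0.86), whose r without the C3H PB animals lay between 0.41 and 0.58. The genes most opposed to Dbp were Spon2 (-0.78), Dnmt3b (-0.76), Flywch2 (-0.70), Krt19 (-0.68) and Atp6v0e2 (-0.68), with -0.14 to -0.33 without those animals. Most like Arntl were Rdh9 (0.77), Net1 (0.72), Icam2 (0.71), Zfp687 (0.70) and Nae1 (0.69), with 0.32 to 0.57 without them. Most opposed to it were Aspg (-0.77), Rasgrp2 (-0.77), Colec10 (-0.77), Bmp4 (-0.76) and Dcc (-0.76), with -0.30 to -0.63 without them. These arrays share group means, slides and brightness, and no p is attached.

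**Figure D5:**
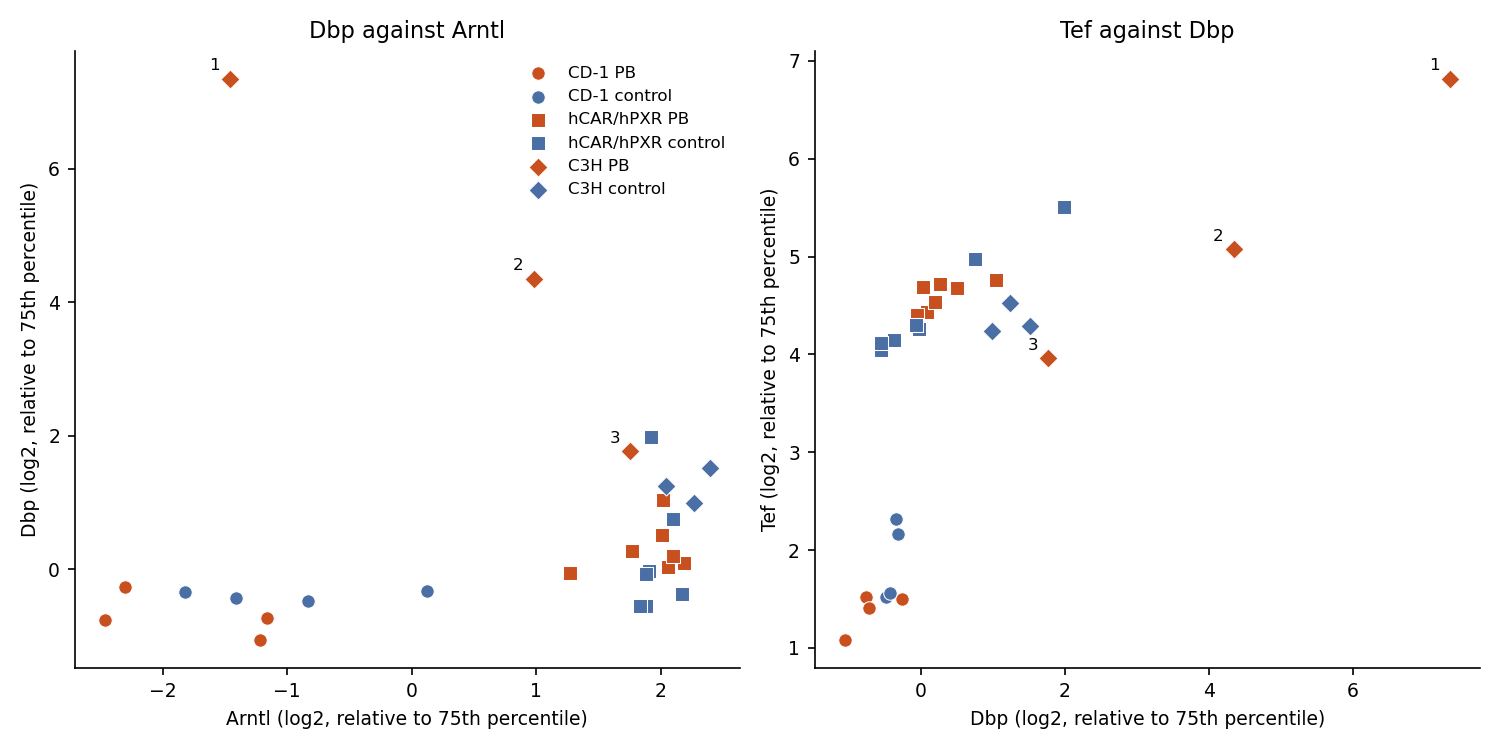
Level of Dbp against Arntl and of Tef against Dbp (log2, relative to the array's 75th percentile), 1 point per mouse, with PB in orange, control in blue, a marker shape per strain and the C3H PB animals numbered. C3H PB animal 1 has Arntl at -1.46 and Dbp at 7.35, while the C3H controls have Arntl from 2.04 to 2.39 and Dbp from 0.99 to 1.52.

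Within the hCAR/hPXR groups, the only ones with 6 or more animals, the level of Arntl was set against each of the other 9 genes, which gave 18 relations. None passed after Benjamini-Hochberg adjustment over the 18. The smallest p was that of Npas2 in PB animals (n = 7, Pearson r = 0.80, exact two-sided permutation p = 0.0115, adjusted p = 0.207; Spearman rho = 0.79, exact p = 0.0480). Its r was 0.57 without the 2 animals farthest from the median of Arntl, and Npas2 was well above background in 4 of the 7. Per3 in PB animals had r = -0.92 (exact permutation p = 0.0427, adjusted p = 0.384; rho = -0.32, exact p = 0.498), which turned to 0.98 without the 2 farthest animals and so rests on those. For Dbp, r was 0.30 in PB animals and 0.11 in controls (adjusted p = 0.959 for both by exact permutation). PB animal 1, alone of its group, shared the slide of the controls, so the relations in PB animals mix 2 slides. Leaving out each PB animal in turn, animal 1 among them, gave an r of 0.71 to 0.89 for Npas2.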

How the data were processed

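Liver RNA of 28 mice was hybridised to 1-colour Agilent arrays of 62976 spots, 1 array per mouse, which the labels call biological replicates. Per the file headers, Agilent Feature Extraction 10.7.3.1 gave each spot a processed signal, an intensity that the authors deposited after background subtraction and detrending within the array. The authors' deposited log2 table matched 55681 of its 55821 entries to probes, and each column equalled the log2 processed signal minus a constant within -0.0102 to 0.0233 of that array's 75th percentile. Here the log2 processed signal minus that percentile over 55681 non-control probes was used, without outlier spots. A gene was read from its probe with the highest mean. Differences were tested with limma 3.58.1 (R 4.3.3) and Benjamini-Hochberg adjustment over all tested genes at 0.05, with the 2 groups in each PB fit and all 28 arrays or all 14 controls in the other fits. The PB fits were also run on simulated data in which both groups of a gene had the same spread. That run does not cover genes of unequal spread, such as Dbp in C3H mice (SD 2.79 in PB animals, 0.27 in controls). The intensity gives no count, so the number of arrays limits the precision. Alternatives were quantile normalization, normexp with an offset of 50, the deposited values, the mean of a gene's probes, no filter, all 28 arrays in 1 fit, replicate and slide blocks, and leaving out each animal. RefSeq names and sequences came from GRCm38.p6 tables. The 10 genes, the lists and the tests were chosen with earlier results of these data known. From the 2 lists, up to 4 called genes a comparison with the smallest adjusted p were named, and Nr1d2, Ciart, Hlf, Nfil3, Nr1i3, Por and Alas1 whatever their values. A further gene of the first list is not reported here.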

Additional observations from a re-analysis of the deposited data

Results flagged for a closer look

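Per3 in hCAR/hPXR PB animal 4 stood at 0.14, with the nearest of the other 6 PB animals at -4.79. It was the only 1 of 40 sets of animals of 1 gene and group tested by Dixon's criterion that passed it, where chance gives about 1 in 20 sets. The probe is a single spot on the array, and the spot carried no outlier mark. No other clock gene passed the criterion in this animal. Arntl came close to the criterion without passing it: the same animal was the lowest of its group at 1.28, with the next at 1.77.

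The PB effect was called different between strains for 3 clock genes, in a fit that takes 1 spread per gene for all groups. Per1 differed by 2.26 and Dbp by 3.55 in C3H minus CD-1 mice, and Dbp by 3.11 and Clock by -0.70 in C3H minus hCAR/hPXR mice. Dose, duration and diethylnitrosamine differ between these experiments along with the strain and cannot be told apart. Without C3H PB animal 1 these differences were 1.49, 2.12, 1.68 and -0.49, and none was called.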

How the results depend on the processing

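The number of clock genes called for PB moved with the handling of spread and slide. In CD-1 mice 0 became 1 with all 28 arrays in 1 fit and 1 with the replicate block (Per1, adjusted p = 0.0491), and leaving out each animal gave 0 to 1. In hCAR/hPXR mice 2 became 1 with no filter on dim probes, 1 with all 28 arrays in 1 fit and 0 with the slide as a block, and leaving out each animal gave 1 to 2. In C3H mice 0 became 3 with all 28 arrays in 1 fit, and leaving out each animal gave 0 to 1. For the difference of the PB effect, 2 became 1 with no filter in C3H minus CD-1 (0 to 3 on leaving out each animal), and 2 became 0 under quantile normalization and 0 with no filter in C3H minus hCAR/hPXR (0 to 3). The 3 came without C3H PB animal 3, where Tef (2.10, adjusted p = 0.00845) joined in C3H minus CD-1, and Arntl (-2.43, adjusted p = 0.0134) and Per1 (2.27, adjusted p = 0.0326) in C3H minus hCAR/hPXR. For control levels, 3 became 1 under normexp in C3H minus hCAR/hPXR. The number of relations with Arntl that passed was 0, and leaving out each animal number gave 0 to 1, the 1 being Npas2 in PB animals without animal 6 (r = 0.89, adjusted p = 0.0250 by exact permutation). The causes of these moves were not tested, beyond fewer animals or more genes tested. No difference of a clock gene that passed its test changed sign under any alternative run. Over single genes, 2286 alternative values kept their side of the threshold, 147 lost it and 42 gained it.

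Same-numbered animals correlated by -0.45 to 0.06 in CD-1, -0.13 to 0.27 in hCAR/hPXR and 0.04 to 0.19 in C3H mice, so the numbers were not taken to pair them. The replicate block changed no other count of clock genes by 1.5 times. A slide block could not be fitted in CD-1 mice, where each group has its slide, and had no use in C3H mice, which share 1.

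Over all genes, CD-1 calls numbered 1900, against 3766 under normexp, 6172 with all arrays in 1 fit, 1164 with the replicate block and 939 without control animal 3. hCAR/hPXR calls numbered 11643, against 440 with the slide as a block. C3H calls numbered 2682, against 607 with no filter, 1543 with the replicate block, and 575 without control animal 3 to 5386 without PB animal 1. Differences of the effect numbered 4004 in C3H minus CD-1, against 7556 under normexp and 2535 without C3H PB animal 3, and 1964 in C3H minus hCAR/hPXR, against 828 under quantile normalization and 1097 without C3H control animal 3. Control calls in C3H minus hCAR/hPXR numbered 10041, against 6084 under quantile normalization, and with no filter those against CD-1 numbered 32116 for hCAR/hPXR, against 20117, and 31694 for C3H, against 19516. The share of calls that were higher was 23.2% in CD-1 mice (33.8% under quantile normalization, 39.6% under normexp), 68.2% for hCAR/hPXR minus CD-1 effects (57.3% and 54.3%), 43.5% for C3H minus hCAR/hPXR effects (61.8% and 55.4%) and 61.4% for the control levels of C3H minus hCAR/hPXR (48.6% and 45.9%).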

Other observations

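Among hCAR/hPXR mice, control animals 6 and 7 had the highest Usp2, Nr1d2 and Ciart of the 7 controls. Usp2 was at 0.88 and 1.75 in these 2 animals, and the other 5 controls lay between -1.0 and -0.04. Nr1d2 was at 0.93 and 1.47 in them, against -0.29 to 0.83 in the other 5. Ciart was at -3.11 and -1.63, against -6.05 to -5.08 in the other 5, but its probe was well above background in animal 7 alone. Arntl stayed between 1.84 and 2.17 in all 7. The array of control animal 6 had 821 outlier spots and 46.5% of probes well above background, against 303 to 372 spots and 49.4% to 58.6% on the other 6 control arrays. The part of this in its values was not tested. These animals were picked out after their values were seen, and the differences were not tested.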
